A study of Homo sapiens with 30 samples.

Results

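The genes described here are 8 products of secretory and mucosal epithelium: MSMB, AZGP1, RLN1, RLN2, TFF1, TFF3, AGR2 and S100P. They were taken by symbol from the deposited expression tables, where all 8 were found among 26443 genes with values. The choice was made with the changes in these libraries known, and the rule describes each gene against its own control. Values of a knockdown or rescue against its control are therefore given as a description, without a p-value. Adjusted p-values are given for the 6 contrasts that the rule does not name, although the libraries in them also enter contrasts that it does. Each of these contrasts is a difference between changes that the rule does use, so its p-value is no independent support.

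RNA was sequenced from LNCaP, a human prostate cancer line that depends on androgen receptor signalling and carries features of luminal, secretory prostate epithelium. The 30 libraries formed 10 groups of 3, in 3 experiments named here after the vector or reagent. The series concerns the stability of FOXA1 protein and its control by Polycomb and by BUB3 with USP7, whereas only RNA was measured here. All cells grew in RPMI with serum. In the pLKO experiment, cells carried the pLKO control or a hairpin RNA for 5 days, directed at USP7 (shUSP7), BUB3 (shBUB3) or FOXA1 (shFOXA1). In the siRNA experiment, cells received siCtrl or siEZH2 for 4 days. In the pGIPZ experiment, cells carried the pGIPZ control, an shRNA against FOXA1 (shFoxA1), that shRNA with HA-tagged wild-type FOXA1 (shFoxA1 + WT), or that shRNA with an HA-tagged FOXA1 labelled K295A (shFoxA1 + K295A). The time there was 5 days, but the sample range in the labels leaves out the third K295A library. Each knockdown is labelled with 1 hairpin or siRNA per experiment, so effects of a reagent and of its target cannot be told apart. Nothing in the labels tells whether replicates came from separate cultures, and the spread behind each p-value may be technical.

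The luminal cells of the prostate release a fluid rich in proteins, and mucosal epithelia of the gut and airways coat themselves with mucus. MSMB encodes beta-microseminoprotein, an abundant protein of seminal plasma. AZGP1 encodes a zinc-binding glycoprotein of seminal fluid and blood that also acts on fat metabolism. RLN1 and RLN2 encode relaxins, peptide hormones of the insulin superfamily that the prostate releases into semen. TFF1 and TFF3 encode trefoil peptides, small proteins secreted with mucins that aid mucosal repair. AGR2 encodes a disulfide isomerase of the endoplasmic reticulum that is needed for mucin production in the gut and is also released from cells. S100P encodes a small calcium-binding protein of the S100 family, which has no signal peptide and can signal through the receptor RAGE once outside the cell. FOXA1 is a pioneer factor through which the androgen receptor reaches much of its chromatin, EZH2 is the methyltransferase of a Polycomb complex, USP7 is a deubiquitinase, and BUB3 is a spindle checkpoint protein.

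In GRCh38 with GENCODE 29, the 8 genes lie on 5 chromosomes and S100P alone is on the plus strand. MSMB spans chr10:46033307-46046269, AZGP1 chr7:99966720-99976157 and AGR2 chr7:16791811-16833433. S100P spans chr4:6693069-6697170. The relaxins are neighbours, with RLN2 at chr9:5299868-5304969 and RLN1 at chr9:5334969-5339873, 30 kb apart. The trefoil genes share a cluster, with TFF3 at chr21:42311667-42315651 and TFF1 at chr21:42362282-42366594, 46.6 kb apart. No member overlaps another annotated gene on these spans.

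RLN1 and RLN2 are shown first because they are neighbouring paralogs that were both lower in the 2 FOXA1 knockdowns and share part of their sequence. Of 1053 words of 50 bases in the annotated exons of RLN1, 164 (15.6%) also occur in RLN2, and these are 12.8% of the words of RLN2. Reads from those stretches could have been split or assigned to either gene, so separate values of the relaxins are uncertain to that extent. TFF1 and TFF3 share no such word. RefSeq (GRCh38.p14) gives upstream windows of 250 bases for 5 of the members, 6 windows in all, and none was found for MSMB, TFF1 and TFF3. The RLN1 window aligned to 1 RLN2 window over 247 bases, of which 221 (89.5%) were identical. A pair of 30-base stretches shows how they differ. Both strands are minus, the sequences read 5′ to 3′, and capitals mark the bases that differ between the genes.
RLN1 (chr9:5339957-5339986): GggcGgagaggCagaAcaagagctgaAggA
RLN2 (chr9:5304796-5304825): AggcAgagaggGagaCcaagagctgaGggG
RLN1 (chr9:5340010-5340039): gaaAaacaAaactgtaaaagggccaaggac
RLN2 (chr9:5304849-5304878): gaaGaacaCaactgtaaaagggccaaggac
The first pair differs at 6 of 30 bases and the second at 2. The letters AGAACA, a half-site word of the androgen receptor, occur once in each window but at different places, starting 98 bases upstream of the RLN1 start in the first stretch and 160 bases upstream of the RLN2 start in the second. On either strand, AGAACA occurs in 12.4% of 35116 RefSeq promoter windows of the same length.

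AGR2 is shown because it was lower than control in all 5 knockdowns. The stretch below is the part of its upstream window outside exons annotated in GENCODE 29, on the minus strand, with capitals on AAACA, the core letters of forkhead sites.
AGR2 (chr7:16805081-16805249): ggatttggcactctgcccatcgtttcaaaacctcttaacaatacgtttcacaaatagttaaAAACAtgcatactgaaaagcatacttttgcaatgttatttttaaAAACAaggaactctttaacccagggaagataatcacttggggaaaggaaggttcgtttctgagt
AAACA starts 189 and 145 bases upstream of the AGR2 start. These letters occur on either strand in 40.4% of all promoter windows, and in 3 of the 6 windows of members (AGR2, RLN1 and 1 of RLN2). The longer forkhead word TGTTTAC, whose reverse strand contains AAACA, is found in 2.98% of all windows and in 0 of the 6. A match of letters is a description and not a binding site.

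The deposited values are FPKM in the pLKO and siRNA experiments and RPKM in the pGIPZ experiment, both scaled by gene length and library total. Relative depth spanned 0.602 to 1.30 in the FPKM table and 0.847 to 1.30 in the RPKM table, and 11262 to 12000 genes reached a value of 1 per library. The third shBUB3 library stood apart by its FPKM sum of 367614. The targeted RNAs were all lowered: USP7 stood at 22.1% of control in shUSP7, BUB3 at 11% in shBUB3, EZH2 at 39.6% in siEZH2, and FOXA1 at 50.9% in shFOXA1 and 62.7% in shFoxA1. FOXA1 was at 115.4% of the pGIPZ control in shFoxA1 + WT and 115.1% in shFoxA1 + K295A. FOXA1 was also at 68.6% of control in siEZH2, and EZH2 at 50%, 36.2% and 46.7% in shUSP7, shBUB3 and shFOXA1. In shFOXA1, BUB3 stood at 42.9% and USP7 at 77.6% of control. BUB3 was at 78.1% in shUSP7, and USP7 at 115.6% in shBUB3. The knockdowns thus did not differ in 1 RNA only. All 11 luminal markers reached a value of 1 in all 30 libraries, while KRT5 and TP63 (basal), CHGA (neuroendocrine), MUC2 and CLCA1 (goblet), COL1A2 and DCN (stroma), PTPRC and CD3E (immune) and PECAM1 (endothelial) stayed below 1 in every library. The lists of other cell types were not silent as a whole, since 3 of 6 basal, 6 of 8 neuroendocrine, 5 of 7 goblet and gut, 3 of 7 stromal, 4 of 6 immune and 3 of 4 endothelial markers stayed below 1 throughout. Of the rest, ENO2 (up to 7.93), COL1A1 (up to 12.3) and CD68 (up to 34.7) reached 1 in all 30 libraries, ACTA2 (up to 13.6) in 27, VWF (up to 4.57) in 18 and KRT14 (up to 7.38) in 16.

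Where the members stood in control cells, which carried a vector or received a control siRNA, differed between the experiments. In the pLKO control, AZGP1 (36.4 FPKM) and AGR2 (34.6 FPKM) led and overlapped, followed by S100P (12), RLN1 (6.34), MSMB (2.49), TFF3 (1.5), RLN2 (1.20) and TFF1 (0.543), each step without overlap between libraries. In siCtrl, AGR2 led at 78.2 FPKM, AZGP1 stood at 23.5 and S100P at 15.4, and MSMB, TFF1, TFF3 and RLN1 overlapped stepwise at 2.29 to 2.05 above RLN2 at 0.250. In the pGIPZ control, S100P led at 282.8 RPKM, ahead of AGR2 (43.2), TFF1 (29.9), MSMB (26.0), RLN1 (21.6), AZGP1 (16.5), TFF3 (4.33) and RLN2 (2.11), again each step without overlap. TFF1 therefore moved from last to the third place, with a value 55.0 times that of the pLKO control, and S100P stood 23.6 times and MSMB 10.4 times higher there. AZGP1 was the member that went the other way, at 2.20 times higher in the pLKO control. The 2 tables were normalized separately, so these ratios were not tested. For scale, of 12309 genes with a mean of at least 1 in either control, 0.731% were at least 4-fold apart on the log2(mean + 1) scale and 0.479% at least 4-fold higher in pGIPZ, with a median difference of -0.02. On that scale S100P was 4.45, TFF1 4.32 and MSMB 2.95 higher in pGIPZ.

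**Figure D1:**
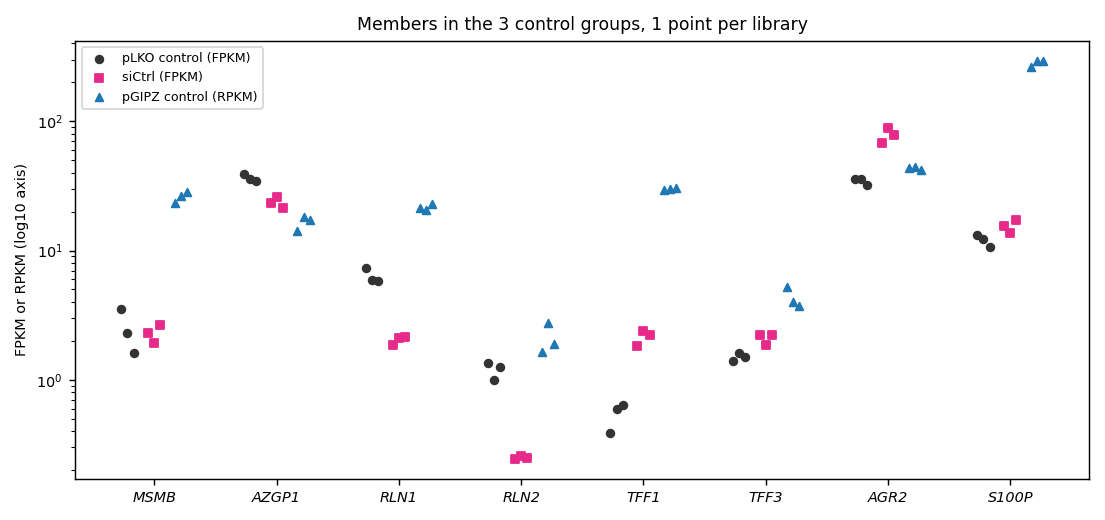
Level of each member in the pLKO control and siCtrl (FPKM) and the pGIPZ control (RPKM) on a log10 axis, with 1 point per library. S100P, TFF1 and MSMB lie far higher in the pGIPZ control, at means of 282.8, 29.9 and 26.0, than in the pLKO control, at 12, 0.543 and 2.49.

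Log2 changes below are differences of means of log2(value + 1) from limma, with their SE, and understate changes of genes near a value of 1. "Called" means an adjusted p under 0.05 over all genes tested. In bulk RNA, fewer cells making a product and less RNA per cell cannot be told apart. The low members rest on few reads, which the step between low values gives: TFF1 had 4, 7 and 6 reads in the pLKO control libraries, while AGR2 had 743, 839 and 595.

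The prostate secretory genes MSMB and AZGP1 did not move alike. MSMB stood at 3.56, 2.30 and 1.60 FPKM in the pLKO control libraries, at 0.893, 0.888 and 1.16 in shBUB3 and at 0.419, 0.177 and 0.513 in shFOXA1. Neither knockdown group overlapped the control, with log2 changes of -0.78 ± 0.18 and -1.32 ± 0.18. The shFOXA1 libraries hold only 5, 2 and 5 reads of MSMB, and the size of that change depends on the pseudocount (-2.47 at 0.1). In shUSP7 the values were 4.00, 3.33 and 4.36 FPKM, which overlap the control. That change, 0.52 ± 0.18, was called with all libraries but not without pLKO replicate 2 (0.50) or 3 (0.33), without shUSP7 replicate 1 (0.50) or 3 (0.45), or at a pseudocount of 0.1 (0.69). After siEZH2, MSMB went from 2.29, 1.92 and 2.66 to 1.39, 0.765 and 0.879 FPKM (-0.72 ± 0.14), without overlap.

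In the pGIPZ experiment MSMB had the higher range, 23.3, 26.3 and 28.4 RPKM in the control, and 4.18, 5.30 and 4.85 in shFoxA1 (-2.22 ± 0.12). Neither FOXA1 construct brought it back: MSMB stood at 2.27, 2.35 and 1.95 RPKM in shFoxA1 + WT, which is 8.43% of the control mean, and at 4.46, 3.24 and 4.75 in shFoxA1 + K295A, which is 16%. The WT libraries lay below every shFoxA1 library, while those of K295A overlapped them.

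AZGP1 was the member with the deepest change after EZH2 siRNA. It went from 23.2, 26.1 and 21.4 FPKM in siCtrl to 1.74, 1.69 and 1.83 in siEZH2, that is from 389, 418 and 473 reads to 32, 34 and 32, and the control mean was 13.4 times the siEZH2 mean (log2 change -3.15 ± 0.09). In the pLKO experiment AZGP1 went from 39.1, 35.6 and 34.5 FPKM to 16.5, 17.7 and 15.8 in shUSP7, to 18.1, 18.2 and 22.2 in shBUB3, and to 19.6, 18.3 and 19.4 in shFOXA1. Those 3 knockdowns left AZGP1 at 45.8%, 53.6% and 52.5% of control, without overlap with it. The pGIPZ experiment gave the opposite direction for FOXA1 knockdown: 14.1, 18.1 and 17.4 RPKM in the control and 21.9, 22.1 and 19.7 in shFoxA1, 128.4% of the control mean. This difference of 0.35 ± 0.10 did not pass the threshold without pGIPZ replicate 1 (0.24), the lowest library. AZGP1 overlapped the control with either construct, at 15.9, 19.0 and 16.8 RPKM in shFoxA1 + WT and 15.8, 19.9 and 16.6 in shFoxA1 + K295A.

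Both relaxin genes were lower in the 2 FOXA1 knockdowns and higher again with re-expressed FOXA1. RLN1 went from 7.29, 5.88 and 5.84 FPKM in the pLKO control to 0.0825, 0.0871 and 0.252 in shFOXA1, that is from 154, 140 and 111 reads to 2, 2 and 5, a change of -2.68 ± 0.14. Replicates 1 and 2 of shFOXA1 lie below the floor of 3 reads, and the size of the change depends on the pseudocount (-4.80 at 0.1). In shFoxA1 it went from 21.4, 20.8 and 22.7 RPKM to 4.03, 3.62 and 1.68 (-2.51 ± 0.18). The libraries of these groups lie far apart, and FOXA1 RNA itself was lowered less than RLN1 in both experiments. With re-expressed FOXA1, RLN1 stood at 25.3, 29.4 and 24.9 RPKM in shFoxA1 + WT and at 19.5, 19.0 and 17.7 in shFoxA1 + K295A, above and below the control range respectively. The other knockdowns reached RLN1 less deeply: 6.42, 4.08 and 5.41 FPKM in shUSP7 overlapped the control, 1.37, 2.04 and 1.45 in shBUB3 did not (-1.49 ± 0.14), and siEZH2 took RLN1 from 1.88, 2.12 and 2.16 to 1.03, 0.941 and 0.937 FPKM (-0.63 ± 0.10).

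RLN2 had the lower mean of the relaxins in every group, with RLN1 between 2.91 (shFOXA1) and 12.6 (shBUB3) times its mean. Both ends of that range rest on few reads of RLN2, and in shFOXA1 the libraries of the relaxins overlapped. RLN2 stood at 1.34, 1.01 and 1.26 FPKM in the pLKO control and at 0.511, 0.866 and 0.468 in shUSP7, without overlap. In shBUB3 it was at 0.0532, 0.238 and 0.0959 FPKM (1, 6 and 2 reads). In shFOXA1 it was at 0.0899 FPKM (2 reads) and 0.0549 FPKM (1 read) in replicates 1 and 3 and listed at 0 in replicate 2, where a floor of 3 reads corresponds to 0.142 FPKM. At this depth the shBUB3 and shFOXA1 values are too close to the floor to be ranked. RLN2 passed the filter of the pLKO fit only through its 3 control libraries, where it is highest. It left the fit against that control when any 1 of them was left out. RLN2 was not tested in the siRNA experiment, with 3, 3 and 4 reads in siCtrl and 3, 6 and 1 in siEZH2. In the pGIPZ experiment RLN2 went from 1.65, 2.77 and 1.90 RPKM to 0.269, 0.868 and 0.866 in shFoxA1, and stood at 2.43, 2.29 and 2.09 in shFoxA1 + WT and 2.56, 1.98 and 2.14 in shFoxA1 + K295A. The rescued groups overlapped the control and lay above every shFoxA1 library.

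Of the trefoil genes, TFF1 stood 55.0 times and TFF3 2.89 times higher in the pGIPZ control than in the pLKO control. TFF1 stood at 29.6, 29.8 and 30.2 RPKM in the pGIPZ control and at 3.70, 5.62 and 5.77 in shFoxA1 (-2.38 ± 0.12), with 163, 201 and 178 reads against 22, 38 and 32. In the pLKO experiment it was near the limit of detection: 0.386, 0.600 and 0.644 FPKM in the control and 0.589, 0.355 and 0.103 in shFOXA1 (7, 4 and 1 reads), which overlap. At that depth a difference of TFF1 between shFOXA1 and the control was not detectable. TFF1 was higher than control in shUSP7, at 1.91, 2.23 and 2.72 FPKM (1.09 ± 0.14), and in shBUB3, at 1.10, 1.49 and 1.62 FPKM (0.63 ± 0.14), and it passed the filter through these 2 groups. After siEZH2 it went from 1.84, 2.41 and 2.21 to 0.559, 0.640 and 1.47 FPKM (-0.77 ± 0.17), on 12, 15 and 19 reads against 4, 5 and 10.

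TFF3 lay above the control in both rescued groups, whereas RLN1 did so with WT alone. It went from 5.26, 4.01 and 3.72 RPKM in the pGIPZ control to 1.41, 1.10 and 1.26 in shFoxA1, and then to 12.9, 12.9 and 10.2 in shFoxA1 + WT and 13.3, 12.1 and 12.5 in shFoxA1 + K295A. The rescued groups thus stood at 276.7% and 291.0% of control, without overlap, whereas TFF1 was brought to 14.8, 13.5 and 15.1 RPKM (48.4% of control) and 18.5, 16.4 and 19.8 RPKM (61.1%). In the pLKO experiment TFF3 was at 1.40, 1.60 and 1.5 FPKM in the control and 0.314, 0.705 and 1.01 in shFOXA1 (-0.60 ± 0.17), without overlap. The shUSP7 libraries, at 1.07, 1.61 and 1.76 FPKM, overlapped the control, and those of shBUB3, at 1.81, 2.05 and 2.94, lay above it (0.37 ± 0.17, not called). TFF3 was the only member higher after siEZH2, at 3.19, 3.05 and 2.47 FPKM against 2.22, 1.87 and 2.22. That difference of 0.33 ± 0.11 did not pass the threshold without siEZH2 replicate 1 (0.27) or 2 (0.30), without siCtrl replicate 2 (0.27), or without the filter (0.33).

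AGR2, the disulfide isomerase, was below its control in all 5 knockdowns without overlap, and most so in shUSP7. Its values were 35.9, 36.0 and 32.0 FPKM in the pLKO control and 4.89, 4.87 and 3.60 in shUSP7, a control mean 7.78 times higher (-2.72 ± 0.10). In shBUB3 AGR2 stood at 6.78, 7.22 and 8.37 FPKM (-2.08 ± 0.10), and in shFOXA1 at 22.1, 24.5 and 24.6 FPKM (-0.53 ± 0.10). The libraries of shUSP7, shBUB3 and shFOXA1 did not overlap each other either. EZH2 siRNA took AGR2 from 67.3, 88.3 and 78.9 to 29.9, 37.7 and 35.0 FPKM (-1.17 ± 0.11). In the pGIPZ experiment it went from 43.3, 44.5 and 41.9 to 11.9, 14.3 and 15.1 RPKM in shFoxA1 (-1.59 ± 0.07), and returned in part, to 29.2, 27.4 and 30.2 in shFoxA1 + WT and 35.9, 32.1 and 32.6 in shFoxA1 + K295A. Those rescued groups stood at 66.9% and 77.5% of the control mean.

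S100P, the calcium-binding protein, was lower in both FOXA1 knockdowns and was not restored by FOXA1. In the pGIPZ experiment the values were 264, 294 and 291 RPKM in the control and 37.9, 40.8 and 41.2 in shFoxA1 (-2.79 ± 0.07). They were 30.2, 29.6 and 32.7 RPKM in shFoxA1 + WT and 39.3, 39.3 and 33.5 in shFoxA1 + K295A, leaving S100P at 14.1%, 10.9% and 13.2% of control in the 3 groups, while FOXA1 RNA in the rescued groups exceeded that of the control. In the pLKO experiment S100P stood at 13.1, 12.2 and 10.6 FPKM in the control, 13.2, 13.9 and 16.4 in shUSP7, 1.63, 2.22 and 2.95 in shBUB3 and 8.61, 10.1 and 7.75 in shFOXA1. The large change was that of shBUB3 (-2.00 ± 0.14). The shFOXA1 difference of -0.40 ± 0.14 did not pass the threshold after median-ratio scaling (-0.23) or without shFOXA1 replicate 1 (-0.39) or 3 (-0.32) or pLKO replicate 1 (-0.34) or 2 (-0.39). EZH2 siRNA took S100P from 15.4, 13.8 and 17.2 to 2.02, 3.21 and 2.98 FPKM (-2.15 ± 0.13).

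**Figure D2:**
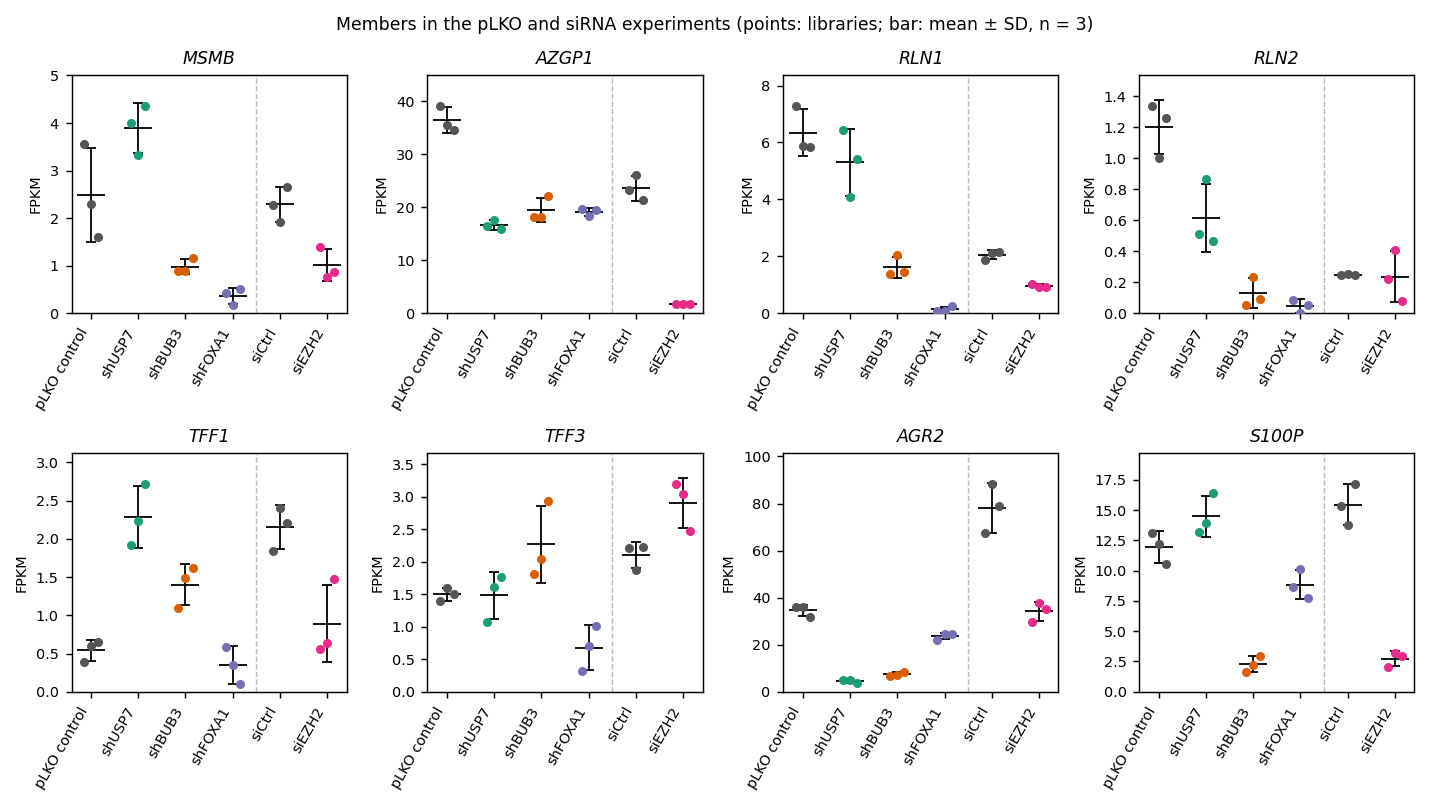
FPKM of each member in every library of the pLKO experiment (left of the dashed line) and the siRNA experiment (right), with the mean and SD of 3 libraries as bars and a separate axis from 0 for each gene. AGR2 is lowest in shUSP7 (mean 4.45), AZGP1 in siEZH2 (1.75) and RLN1 in shFOXA1 (0.141).

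**Figure D3:**
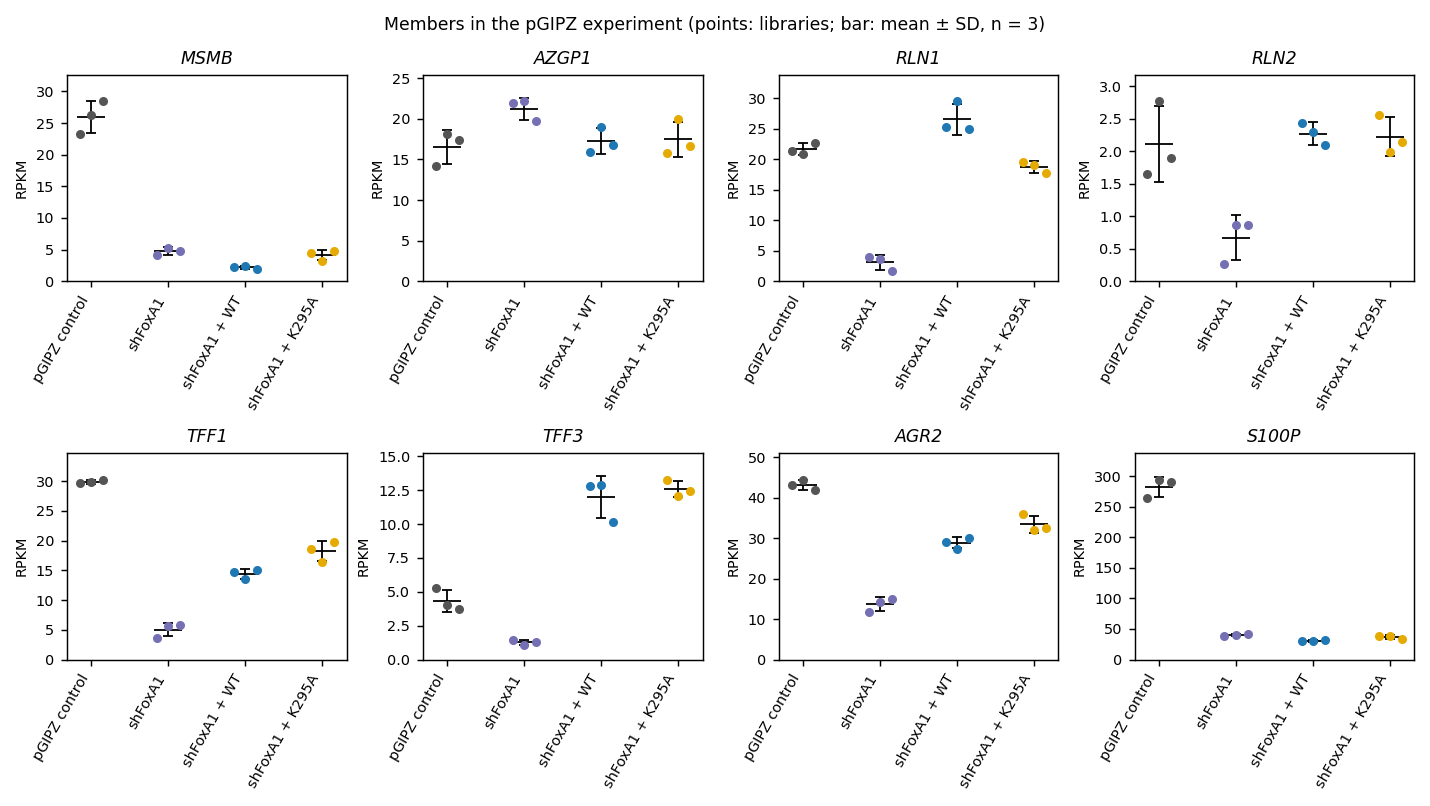
RPKM of each member in every library of the pGIPZ experiment, with the mean and SD of 3 libraries as bars and a separate axis from 0 for each gene. RLN1, RLN2, TFF1, TFF3 and AGR2 lie higher in both rescued groups than in shFoxA1, whereas MSMB (means 4.78, 2.19 and 4.15) and S100P (40.0, 30.8 and 37.4) do not.

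Set side by side, the knockdowns gave different patterns over the same 8 genes. In shUSP7, 2 members were called higher (MSMB and TFF1) and 3 lower (AZGP1, RLN2 and AGR2), against a background of 62.2% of 12524 genes called, 29.1% higher and 33% lower. TFF1 was below 1 in every control library and RLN2 in every shUSP7 library, and both passed the filter only through groups where they are higher. The 6 members that reached 1 in both groups gave 1 higher and 2 lower calls. The count of 5 became 3 without pLKO replicate 2 or 3, when RLN2 no longer passed the filter and MSMB no longer passed the threshold. In shBUB3, 6 members were called lower and TFF1 higher, where 65.2% of genes were called, 33.3% higher and 32% lower, and 5 of the 6 that reached 1 in both groups were called lower. In shFOXA1, 7 members were called lower and none higher (TFF1 was not called), where 70.3% of genes were called and 45.1% were lower. MSMB, RLN1, RLN2 and TFF1 were below 1 in every shFOXA1 library, and the other 4 members were called lower. In siEZH2, 6 of 7 tested members were called lower and TFF3 higher, where 63.3% of 11908 genes were called, 43% lower and 20.3% higher. In shFoxA1, 7 members were called lower and AZGP1 higher, where 49.2% of 12563 genes were called, 24.2% lower and 25% higher, and RLN2 alone was below 1 in every library of a group (shFoxA1). Members whose 3 libraries did not overlap the control numbered 5 of 8 in shUSP7 (76.6% of all genes tested), 8 in shBUB3 (66.6%), 7 in shFOXA1 (79.4%), 7 of 7 in siEZH2 (68%) and 8 in shFoxA1 (56.4%). The members were chosen from these contrasts, so nothing is read from these shares. The shUSP7, shBUB3 and shFOXA1 changes share the 3 pLKO control libraries.

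**Figure D4:**
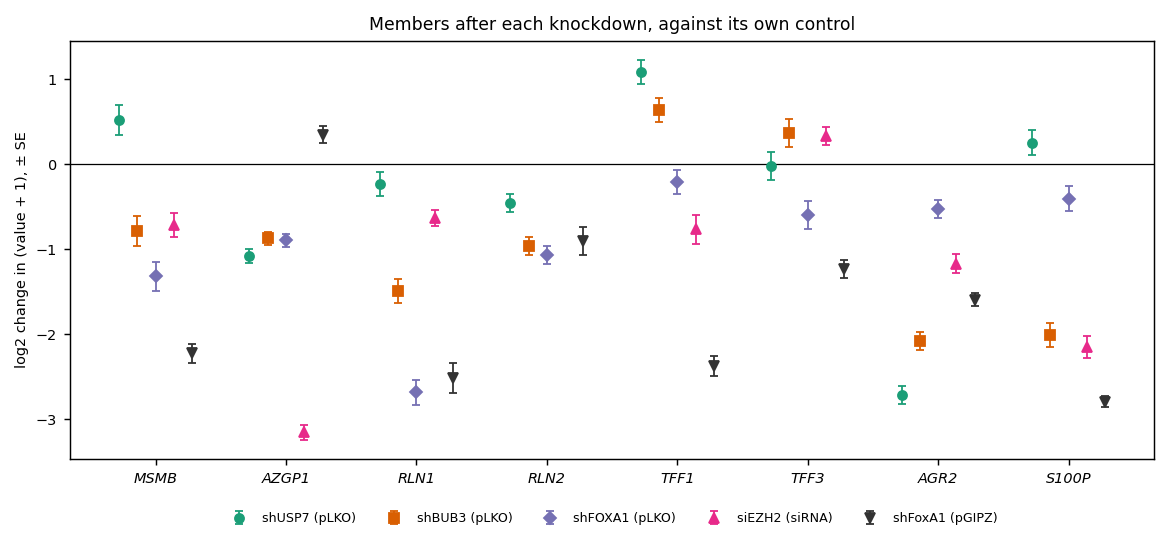
Log2 change of each member in 5 knockdowns against the control of the same experiment, on the log2(value + 1) scale, with SE as bars and RLN2 not tested for siEZH2. AGR2 lies below 0 in all 5 (from -2.72 in shUSP7 to -0.53 in shFOXA1), and AZGP1 lies above 0 in shFoxA1 alone (0.35).

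The knockdowns of the pLKO experiment were also compared directly with each other. The rule does not name these contrasts, but each is a difference between changes against the pLKO control, which it does use. Between shUSP7 and shBUB3, S100P was 2.26 ± 0.14 (adjusted p = 1.1e-07), MSMB 1.30 ± 0.18 (adjusted p = 4.9e-05) and RLN1 1.26 ± 0.14 (adjusted p = 1.3e-05) higher in shUSP7, without overlap between libraries. RLN2 (0.51 ± 0.11, adjusted p = 0.0012) and TFF1 (0.45 ± 0.14, adjusted p = 0.015) were higher there too, although TFF1 lost its call at a pseudocount of 0.1 (0.67) and without shUSP7 replicate 3 or shBUB3 replicate 1 (0.36 in each). RLN2 was below 1 in every library of both groups and entered the fit through the pLKO control, where it is highest. TFF1 entered it only through shUSP7 and shBUB3. The p-values of RLN2 and TFF1 are therefore no independent support here either. AGR2 was lower in shUSP7 than in shBUB3 by -0.64 ± 0.10 (adjusted p = 2.0e-04). AZGP1 differed by -0.21 ± 0.08 (adjusted p = 0.037). That AZGP1 call ended without the filter (-0.21), with median-ratio scaling (-0.17), in a fit of these 2 groups alone (-0.21) and with a replicate block (-0.21). It also ended without shUSP7 replicate 1 (-0.20) or 3 (-0.17) or shBUB3 replicate 3 (-0.12), the library that stood apart. TFF3 differed by -0.39, with a 95% interval of -0.76 to -0.03 (adjusted p = 0.056). It was called with a replicate block (-0.39) and without shUSP7 replicate 3 (-0.47) or shBUB3 replicate 1 (-0.49). In all, 7 of 8 members were called, 5 higher and 2 lower (4 and 2 of the 7 that reached 1 in both groups), where 65.2% of genes were called, 29% higher and 36.2% lower. The libraries were free of overlap for all 8 members, and for 66.9% of all genes.

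Set against shUSP7, shFOXA1 had lower RLN1 (-2.45 ± 0.14, adjusted p = 3.6e-08), MSMB (-1.84 ± 0.18, adjusted p = 2.1e-06), TFF1 (-1.29 ± 0.14, adjusted p = 6.8e-06), S100P (-0.66 ± 0.14, adjusted p = 0.0015), RLN2 (-0.62 ± 0.11, adjusted p = 2.6e-04) and TFF3 (-0.58 ± 0.17, adjusted p = 0.0085). RLN1, MSMB, TFF1 and RLN2 were below 1 in every shFOXA1 library and passed the filter only through groups where they are higher, TFF1 through shUSP7 and shBUB3 alone, so their p-values, here and against shBUB3, are no independent support. AGR2 alone was called higher in shFOXA1, by 2.19 ± 0.10 (adjusted p = 6.3e-09). AZGP1 differed by 0.19, with a 95% interval of 0.01 to 0.36 (adjusted p = 0.053), and was called after median-ratio scaling (0.34), in a fit of these 2 groups alone (0.19) and without shUSP7 replicate 2 (0.23). These 7 of 8 called members (1 higher and 2 lower of the 4 that reached 1 in both groups) stand beside 70.9% of all genes called, 28.1% higher and 42.9% lower, and the 8 without overlap with 80% of all genes. Set against shBUB3, shFOXA1 had higher S100P (1.60 ± 0.14, adjusted p = 1.1e-06) and AGR2 (1.55 ± 0.10, adjusted p = 7.7e-08). RLN1 (-1.19 ± 0.14, adjusted p = 1.3e-05), TFF3 (-0.97 ± 0.17, adjusted p = 2.3e-04), TFF1 (-0.84 ± 0.14, adjusted p = 2.0e-04) and MSMB (-0.54 ± 0.18, adjusted p = 0.015) were lower in shFOXA1, and MSMB lost its call without shFOXA1 replicate 2 (-0.43). AZGP1 (-0.02, interval -0.20 to 0.15) and RLN2 (-0.10, interval -0.34 to 0.13) did not pass the test. This count of 6 of 8 (2 higher and 1 lower of the 4 that reached 1 in both groups) stands beside 73.4% of all genes called, 27.6% higher and 45.8% lower, and libraries did not overlap for 6 members, against 72.8% of all genes. With median-ratio scaling the median over all tested genes shifted by 0.123 (shFOXA1 against shUSP7) and 0.155 (shFOXA1 against shBUB3), and every called member kept its direction in these 3 contrasts.

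Re-expression of FOXA1 split the members into those that rose and those that did not. Relative to shFoxA1, wild-type FOXA1 was accompanied by higher RLN1 (2.79 ± 0.18, adjusted p = 1.1e-07), TFF3 (2.52 ± 0.11, adjusted p = 3.5e-09), TFF1 (1.38 ± 0.12, adjusted p = 1.3e-06), AGR2 (1.03 ± 0.07, adjusted p = 3.2e-07) and RLN2 (0.99 ± 0.16, adjusted p = 2.7e-04). RLN2 was below 1 in every shFoxA1 library and passed the filter only through the control and the rescued groups, where it is higher, so its p-value here and with K295A is no independent support. MSMB (-0.85 ± 0.12, adjusted p = 6.3e-05) and S100P (-0.36 ± 0.07, adjusted p = 5.4e-04) fell further below their shFoxA1 level. AZGP1 was lower by -0.29 ± 0.10 (adjusted p = 0.031), a call that ended without the filter (-0.29), without shFoxA1 + WT replicate 1 (-0.24) or 3 (-0.27) and without shFoxA1 replicate 1 (-0.27) or 2 (-0.26). In all 8 members the 3 libraries of the groups did not overlap, where 61.7% of all genes did not. Of the 8, 5 were called higher and 3 lower (4 and 3 of the 7 without RLN2), where 36.6% of genes were called higher and 18.9% lower (55.5% in all).

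With K295A in place of wild-type FOXA1 the same 5 members rose: TFF3 by 2.59 ± 0.11 (adjusted p = 3.0e-09), RLN1 by 2.31 ± 0.18 (adjusted p = 5.9e-07), TFF1 by 1.69 ± 0.12 (adjusted p = 2.2e-07), AGR2 by 1.23 ± 0.07 (adjusted p = 6.4e-08) and RLN2 by 0.97 ± 0.16 (adjusted p = 3.1e-04). MSMB stood at -0.17, with a 95% interval of -0.43 to 0.08, and S100P at -0.10, with an interval of -0.24 to 0.05, and neither was called. S100P was called lower after median-ratio scaling (-0.21), which shifted the median over all tested genes by -0.101 in this contrast. AZGP1 was lower by -0.27 ± 0.10 (adjusted p = 0.038), a call that ended without the filter (-0.27) and without K295A replicate 1 (-0.21) or 3 (-0.24) or shFoxA1 replicate 1 (-0.25) or 2 (-0.24). The 5 higher and 1 lower calls (4 and 1 without RLN2) stand beside 38.7% and 18.3% of all genes (56.9% in all), and the libraries of 5 members did not overlap, against 63.6% of genes. The WT and K295A contrasts share the shFoxA1 libraries.

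The direct difference between K295A and wild-type FOXA1 was called for MSMB, by 0.68 ± 0.12 (adjusted p = 0.0498), and for no other member. Background calls were rare in this contrast, 0.183% of 12563 genes, 0.0876% higher and 0.0955% lower, while the libraries of 5 members and of 16% of all genes did not overlap. The MSMB libraries did not overlap, but the call held by a narrow margin. It ended without the filter (0.68), after median-ratio scaling (0.66), with these 2 groups alone (0.68) and with a replicate block (0.68). It also ended without K295A replicate 1 (0.63) or 3 (0.59) or WT replicate 1 (0.70), 2 (0.72) or 3 (0.62). For the others, the 95% intervals of K295A minus WT were -0.87 to -0.08 for RLN1, 0.12 to 0.41 for S100P, 0.06 to 0.57 for TFF1, 0.04 to 0.37 for AGR2, -0.17 to 0.31 for TFF3, -0.21 to 0.24 for AZGP1 and -0.38 to 0.33 for RLN2. The first 4 of these intervals exclude 0 before adjustment, and their adjusted p-values were 0.38, 0.17, 0.38 and 0.36. These intervals do not show that the constructs act alike on any member.

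**Figure D5:**
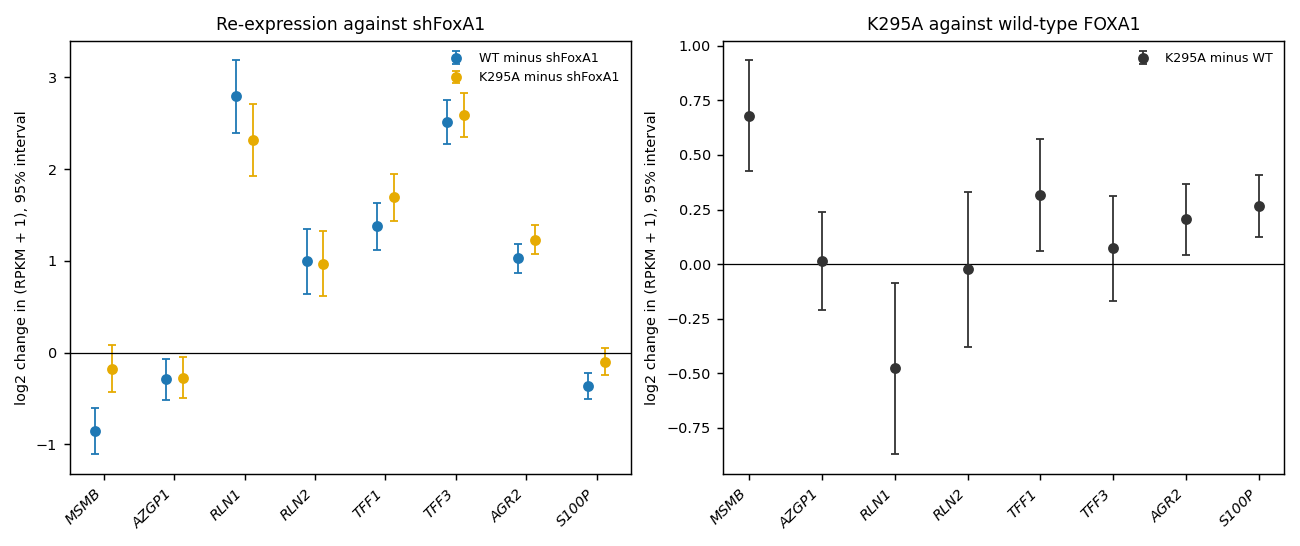
Left, log2 change in (RPKM + 1) of each member in shFoxA1 + WT and shFoxA1 + K295A against shFoxA1; right, K295A against WT; bars are 95% intervals from limma before adjustment. RLN1, RLN2, TFF1, TFF3 and AGR2 lie above 0 with both constructs (0.97 to 2.79), and MSMB lies highest in the right panel (0.68).

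Against the pGIPZ control, the rescued groups can only be described. RLN1 (0.28 ± 0.18 in WT and -0.20 ± 0.18 in K295A), RLN2 (0.09 and 0.07) and AZGP1 (0.06 and 0.07) were not called. Unlike RLN2 and AZGP1, RLN1 did not overlap the control in either group. It was called in both contrasts in a fit of 2 groups alone (0.28 and -0.20). TFF1 (-1.0 ± 0.12 and -0.68 ± 0.12) and AGR2 (-0.56 ± 0.07 and -0.36 ± 0.07) remained lower, TFF3 was higher (1.29 ± 0.11 and 1.36 ± 0.11), and S100P (-3.16 ± 0.07 and -2.89 ± 0.07) and MSMB (-3.08 ± 0.12 and -2.40 ± 0.12) were the members farthest below the control. In each rescued group 4 members were called lower and 1 higher, where 11.8% and 33.7% of genes were called lower and higher with WT (45.5% in all) and 12.8% and 37.8% with K295A (50.5% in all). The libraries of 6 members did not overlap the control in either group, against 53.6% of genes with WT and 57.7% with K295A.

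Across the 10 group means, with each experiment centred on its own mean, RLN1 and RLN2 had the most similar profiles among the members (r = 0.94), followed by MSMB and S100P (r = 0.84). The least alike were TFF3 and S100P (r = -0.31). These are descriptions over 10 points that share controls and libraries, and the relaxin pair shares sequence. Among 8255 other genes, the profile most like that of RLN1 was GCNT1 (r = 0.96), an enzyme that branches mucin-type glycans, and then SLC7A6 (r = 0.96). For RLN2 these were THOC1 (0.96) and POLG2 (0.95), for AZGP1 SNX17 (0.98) and UHMK1 (0.97), and for AGR2 PEX6 (0.95) and NEK8 (0.94). MSMB was most like ZC3HAV1 (0.95) and B2M (0.91), TFF3 like LRRC61 (0.95) and EPHA6 (0.92), S100P like SNORD4B (0.95) and SCNN1A (0.92), and TFF1 like FAM134B (0.91) and SNORD12 (0.91). GCNT1 stood at 5.93, 3.67, 2.99 and 0.888 FPKM in the pLKO control, shUSP7, shBUB3 and shFOXA1, and at 8.65, 2.45, 10.5 and 10.2 RPKM in the pGIPZ groups in the order given above. The siRNA experiment was less alike, with GCNT1 means of 9.47 and 8.87 FPKM in siCtrl and siEZH2 and RLN1 means of 2.05 and 0.968.

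The genes next to the members did not all move with them. TSPAN13, 7.3 kb from AGR2, had means of 76.6, 43.3, 93.0 and 303 FPKM in the pLKO control, shUSP7, shBUB3 and shFOXA1, of 109.6 and 51.1 FPKM in siCtrl and siEZH2, and of 50.9, 174.6, 76.5 and 77.3 RPKM in the pGIPZ control, shFoxA1, WT and K295A groups. It was thus lower together with AGR2 in shUSP7 and siEZH2, and higher where AGR2 was lower in shBUB3 and both FOXA1 knockdowns. PLGRKT, 18.1 kb from RLN1, had means of 32.7, 20.5, 28.3 and 9.57 FPKM in the pLKO experiment, of 37.6 and 26.1 FPKM in siCtrl and siEZH2, and of 42.8, 22.9, 48.4 and 44.2 RPKM in the pGIPZ groups, below its control mean in all 5 knockdowns, as RLN1 was. TFF2, which lies between TFF3 and TFF1, stayed at or below a mean of 0.274 in all 10 groups. These neighbours were read as group means only.

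Genes related to the members by function were counted from 6 lists, and the share of tested list genes called is given beside that of all genes tested. Of 40 genes for mucins, trefoils and mucin glycosylation, 10 were tested in the pLKO fit and 13 in the pGIPZ fit. In shFoxA1, 3 rose and 8 fell (84.6% against 49.2% of all genes, median -0.68, all genes 0.00), with the immunoglobulin transporter PIGR up from 2.04 to 11.2 RPKM and the glycosyltransferases GALNT7 (45.3 to 14) and ST3GAL1 (104 to 33.4) down. In shFoxA1 + WT against shFoxA1, 4 rose and 4 fell (61.5% against 55.5%, median 0.12, all genes 0.08), PIGR to 1.26 and GCNT1 from 2.45 to 10.5 RPKM, and the counts with K295A were 4 and 4 (61.5% against 56.9%). In shUSP7 5 rose and 3 fell (80% against 62.2%), in shBUB3 4 and 5 (90% against 65.2%) and in shFOXA1 2 and 4 (60% against 70.3%). In siEZH2 1 rose and 6 fell (70% against 63.3%), and the sialyltransferase ST6GALNAC1 fell from 19.6 to 1.51 FPKM and GALNT3 rose from 18.6 to 105 FPKM.

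Of 39 other prostate and glandular secreted products, 19 were tested in the pLKO and pGIPZ fits and 16 in the siRNA fit. Some of these went opposite to RLN1, RLN2, TFF1, TFF3 and AGR2 in the pGIPZ experiment, and in the same direction as AZGP1. The apocrine protein PIP rose from 0.853 to 10.0 RPKM in shFoxA1, the iron-scavenging protein LCN2 from 6.23 to 32.0, and the chaperone CLU from 9.51 to 39.0. With wild-type FOXA1 they stood at 0.578, 2.28 and 8.96 RPKM and with K295A at 0.352, 3.14 and 9.38. In all, 6 rose and 10 fell in shFoxA1 (84.2% against 49.2% of all genes, median -0.15), 8 rose and 9 fell with WT (89.5% against 55.5%, median -0.21) and 8 and 9 with K295A (89.5% against 56.9%). In shUSP7 8 rose and 6 fell (73.7% against 62.2%), including the stress cytokine GDF15 (666 to 2142 FPKM) and the protease inhibitor SLPI (8.11 to 2.56). The counts were 6 and 6 in shBUB3 (63.2% against 65.2%), 8 and 8 in shFOXA1 (84.2% against 70.3%), and 5 and 6 in siEZH2 (68.8% against 63.3%).

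AGR2 belongs to the protein disulfide isomerase family, which folds secreted proteins, and 21 to 22 of 23 other genes of that list were tested. In shFoxA1 16 of 22 fell and 3 rose (86.4% called against 49.2% of all genes, of which 24.2% lower and 25% higher, median -0.35). With WT 16 rose and 3 fell (86.4% against 55.5%, of which 36.6% higher and 18.9% lower, median 0.31, all genes 0.08), and with K295A 16 and 4 (90.9% against 56.9%). In shFOXA1 13 of 21 fell and 4 rose (81.0% against 70.3%, median -0.40, all genes -0.15), with PDIA6 going from 62.1 to 22 FPKM. In shUSP7, where AGR2 was lowest, 11 fell and 4 rose (71.4% against 62.2%), including PDIA2 (5.24 to 1.05) and QSOX1 (51.5 to 91.8 FPKM), and in shBUB3 7 fell and 7 rose (66.7% against 65.2%). In siEZH2 9 fell and 4 rose (61.9% against 63.3%), PDIA4 among the latter (58.2 to 177 FPKM). AGR3, the nearest relative of AGR2, stayed at or below a mean of 1.24 in all groups.

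Of the other S100 genes and partners, 9, 8 and 11 of 24 were tested in the pLKO, siRNA and pGIPZ fits. S100A9, which forms a heterodimer with S100A8 in inflamed epithelium and myeloid cells, moved against S100P in the knockdown, from 0.733 to 17.4 RPKM in shFoxA1. It stood at 1.25 with WT and 1.81 with K295A, so that with WT both genes were lower than in shFoxA1, and S100A8 stood at 0.0570, 2.26, 0 and 0.170 RPKM in these groups. The ezrin gene EZR, whose product binds S100P, went from 49.6 to 76.9 RPKM in shFoxA1 and to 34.7 with WT and 35.3 with K295A. In all, 4 rose and 1 fell in shFoxA1 (45.5% against 49.2% of all genes), 2 rose and 4 fell with WT (54.5% against 55.5%), and 1 and 4 with K295A (45.5% against 56.9%). In shUSP7 1 rose and 5 fell (66.7% against 62.2%), in shBUB3 3 and 2 (55.6% against 65.2%), in shFOXA1 5 and 1 (66.7% against 70.3%), and in siEZH2 the 6 called genes fell (75% against 63.3%). Only 3 or 4 of 16 genes of the relaxin and insulin family were tested, all of them ligands or receptors of the insulin and IGF branch. In siEZH2 the 4 tested fell (100% against 63.3%), and in shFoxA1 1 rose and 2 fell (100% against 49.2%). With WT 2 rose and 1 fell (100% against 55.5%), as with K295A (100% against 56.9%). In shUSP7 0 rose and 1 fell (33.3% against 62.2%), in shBUB3 1 and 0 (33.3% against 65.2%), and in shFOXA1 1 and 1 (66.7% against 70.3%). IGF2R fell in shUSP7 (91.1 to 69.6 FPKM) and shFOXA1 (31.1 FPKM) and rose in shBUB3 (146 FPKM), and it fell in shFoxA1 (67.5 to 50.8 RPKM).

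Among 27 transcription factors of secretory luminal cells, 15 were tested. SPDEF, a factor of goblet and luminal cells, fell in shFOXA1 (83.6 to 26.4 FPKM), siEZH2 (77.9 to 21.9 FPKM) and shFoxA1 (85.5 to 44.2 RPKM). In shUSP7, the group with the lowest AGR2, CREB3L4 fell from 50.6 to 17.5 FPKM and ELF3 rose from 11.7 to 45.8. KLF4 stood at 24.8, 16.5, 6.14 and 8.0 RPKM in the control, shFoxA1, WT and K295A groups, and its difference between K295A and WT (0.33) was the only one called on this list. The counts of risen and fallen factors were 2 and 8 in shUSP7 (66.7% against 62.2% of all genes), 2 and 10 in shBUB3 (80% against 65.2%), 6 and 7 in shFOXA1 (86.7% against 70.3%) and 3 and 10 in siEZH2 (86.7% against 63.3%). They were 7 and 7 in shFoxA1 (93.3% against 49.2%), and 7 and 6 with either construct against shFoxA1 (86.7% against 55.5% with WT and 56.9% with K295A).

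Markers of other cell types were measured beside these results. The summed level of 7 goblet and gut markers was 35.1 to 37.5 FPKM in shUSP7 and 1.27 to 1.35 in the pLKO control, through the brush border enzyme SI (up to 37.3), while CLCA1 and FABP1 were at 0 in both groups. Beside this, TFF1 stood at 4.21 times control in shUSP7 without overlap, and TFF3 overlapped the control. The summed level of 6 immune markers was 32.5 to 35.4 RPKM in shFoxA1 and 12.8 to 15.3 in the pGIPZ control, through CD68 (up to 34.7), with PTPRC at 0 in both. The luminal list was lower in all 5 knockdowns. It summed to 754 to 856 FPKM in siEZH2 against 2524 to 2627 in siCtrl, to 1420 to 1490 in shUSP7, 1718 to 1991 in shBUB3 and 1739 to 1832 in shFOXA1 against 2502 to 2554 in the pLKO control, and to 2415 to 2458 RPKM in shFoxA1 against 2861 to 2915 in the pGIPZ control. With WT and K295A it stayed below the shFoxA1 level, with highest sums of 2195 and 2095 RPKM. The 7 stromal markers summed to 13.7 to 16.9 FPKM in siEZH2 against 5.48 to 5.95 in siCtrl, to 16.2 to 19.2 in shBUB3 against 6.95 to 7.45 in the pLKO control, and to 11.8 to 12.7 RPKM in shFoxA1 against 7.17 to 8.47 in the pGIPZ control. Most of this was COL1A1 in siEZH2 (mean 10.2 against 3.26 FPKM) and ACTA2 in shBUB3 (11.9 against 2.81 FPKM) and shFoxA1 (7.32 against 2.02 RPKM), with COL1A2 at 0 in siEZH2 and its highest value in any library at 0.0135. The 6 basal markers summed to 4.14 to 5.16 FPKM in shFOXA1 against 1.65 to 2.19 in the pLKO control. They summed to 7.16 to 9.31 RPKM in shFoxA1 against 4.56 to 4.93 in the pGIPZ control. The list did not move as a whole. KRT14 (mean 2.83 FPKM) and KRT15 (1.42 against 0.138) were higher in shFOXA1, while DST was lower (0.376 against 0.769). KRT5 was at 0 in every shFOXA1 library. Most of the higher sum in shFoxA1 was KRT14 (6.47 against 2.58 RPKM), while KRT15 was lower (0.817 against 1.22). The 4 endothelial markers summed to 4.32 to 4.64 FPKM in shUSP7 and 2.91 to 3.46 in shBUB3 against 1.70 to 1.78 in the pLKO control, through VWF, and the 8 neuroendocrine markers were lower in shUSP7 (2.42 to 2.94) and shFOXA1 (2.90 to 3.43) than in that control (5.63 to 6.73). The latter was mostly ENO2 (means 1.98 and 2.00 against 5.2 FPKM), while SCG2 was higher in shFOXA1 (0.700 against 0.0362 FPKM). The part of these shifts in the changes of the members was not tested.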

How the data were processed

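Expression was read from 30 LNCaP libraries in 10 groups of 3. The deposited values were FPKM in the pLKO and siRNA experiments and RPKM in the pGIPZ experiment. STAR and hg38 are named in the submitters' processing notes. Both units scale reads by gene length and library total. The sources used here name no counter, annotation or STAR version. Each table held 26475 genes, 32 of them without values, and 0 pairs of identical columns. Read totals are not in the tables. Low values are whole multiples of the value of 1 read, which gave relative depth and each member's reads. Intervals and floors from reads cover counting error only.

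Values were taken as log2(value + 1). Genes that reached 1 in 3 or more libraries of an experiment were fitted with limma 3.58.1 in R 4.3.3 (group means, trend on intensity, moderated two-sided tests). P-values were adjusted by Benjamini and Hochberg's method over all genes tested, separately in each of 13 comparisons. An exact permutation test of 3 against 3 cannot go below p = 0.1. On simulated data the fits recovered 76.8%, 53.5% and 90.0% of genes changed by 0.5 (log2) in the pLKO, siRNA and pGIPZ designs, with 7, 16 and 4 false calls. Noise there was normal, and few genes were changed, all with a control level above 1. Far more genes were called in most contrasts here and some members lie below 1, so these shares need not hold for them. Python 3.11.15 with NumPy 2.4.6, pandas 2.3.3, Biopython 1.88 and matplotlib 3.10.9 did the rest.

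The members and gene lists were chosen with earlier results of these data known. Genes named besides the members were the 4 targeted genes, up to 3 called genes per list and comparison with the largest change, and the 2 genes most alike per member (group mean of at least 5 in each table). The neighbours TSPAN13, PLGRKT and TFF2 and the relative AGR3 were chosen after their values were seen. Alternatives were a pseudocount of 0.1, no filter, median-ratio scaling, a fit of 2 groups alone, a replicate block, and leaving out each library. Some genes that the naming rule takes are not reported here.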

Additional observations from a re-analysis of the deposited data

Results flagged for a closer look

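AZGP1 went in opposite directions in the 2 FOXA1 knockdowns. Every shFOXA1 library lay below every pLKO control library (18.3 to 19.6 against 34.5 to 39.1 FPKM), whereas every shFoxA1 library lay above every pGIPZ control library (19.7 to 22.1 against 14.1 to 18.1 RPKM), a ratio of means of 1.28. The difference between the experiments was not tested, because their tables were normalized separately.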

How the results depend on the processing

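Of 1112 member values recomputed under the alternatives, 1054 kept their direction and their side of the threshold, 45 lost a call, 13 gained one and 0 called values changed sign. Members that left the filter under an alternative are not among these values, and their calls are not counted as lost. This holds for RLN2 against the pLKO control with any 1 control library left out. It also holds, in fits of 2 groups alone, for RLN2 between the pLKO knockdowns and for MSMB in shFOXA1 against shBUB3. Of 142 counts of called members, 131 stayed within 1.5 times. The count for shUSP7 against pLKO was 5, and 3 to 5 with 1 library left out. For shBUB3 against pLKO it was 7, and 6 to 8 with 1 library left out. For shFOXA1 against pLKO it was 7, and 5 to 7 with 1 library left out. The count for K295A against WT was 1, and 0 without the filter, with median-ratio scaling, in a fit of 2 groups alone, with the replicate block, and 0 to 1 with 1 library left out. In that contrast 23 genes were called in all, 11 without the filter, 6 with 2 groups alone, and 9 at the lowest with 1 library left out. Replicate numbers did not pair the samples (correlations of deviations from -0.185 to 0.126 in the pLKO, -0.126 to 0.058 in the siRNA and -0.069 to 0.041 in the pGIPZ experiment), and libraries correlated best with their own number in 13 of 36, 2 of 6 and 5 of 36 checks. The replicate block ended 2 calls of members (MSMB in K295A against WT and AZGP1 in shUSP7 against shBUB3), added 2 (TFF3 in shBUB3 against pLKO and in shUSP7 against shBUB3), and left 14 genes called in K295A against WT. With median-ratio scaling the median over all tested genes shifted by 0.157 for shFOXA1 and 0.167 for siEZH2 against control, and by -0.107 for K295A against pGIPZ. The percentage of calls that were in the higher direction went from 35.9% to 50.1% (shFOXA1), from 32.1% to 49.9% (siEZH2), from 74.0% to 47.6% and 74.7% to 48.4% (WT and K295A against pGIPZ), from 65.9% to 49.1% and 67.9% to 48.5% (WT and K295A against shFoxA1), from 39.6% to 51.1% and 37.6% to 50% (shFOXA1 against shUSP7 and shBUB3), and from 47.8% to 33.3% (K295A against WT). Depth limits TFF1 and RLN2 in the FPKM table, where several groups hold fewer than 10 reads per library, and MSMB and RLN1 in shFOXA1, where all 3 libraries do. The cause of these shifts was not tested.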
